A study of Mus musculus with 11 samples.

Results

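The genes described are 39 imprinted genes of the mouse, taken by symbol from a set list and followed through 11 RNA-seq libraries of the embryonic dorsal telencephalon, the part of the forebrain that forms the neocortex. Each of the 39 symbols matched 1 identifier among the 46078 genes in the deposited files. By the parental copy that is known to be active, 20 of the genes are expressed from the paternal copy, 14 from the maternal copy, and 5 carry imprinted isoforms or are imprinted only in some tissues. The 14 include Ube3a, Copg2, Commd1 and Trappc9, whose maternal expression or bias is described for some tissues or cells only. The rule uses no measured value.

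An imprinted gene is read mainly from the copy inherited from 1 parent. The cause is a methylation mark that differs between the parental copies, set in the germ line and kept through development. Most such genes lie in clusters in which 1 imprinting control region sets the activity of several neighbours, coding genes and long noncoding RNAs alike. Many paternally expressed genes promote fetal growth and many maternally expressed genes restrain it, and several are active in the developing brain. The counts used here sum both parental copies, so they give the level of a gene and not which copy it came from.

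All embryos were of strain CD-1. For the E15.5 libraries, wild-type embryos were electroporated in utero at E12.5 with the GFP plasmid pCIG2, either empty (GFP controls, n = 3) or carrying L3mbtl3 (gain libraries, n = 3). GFP-positive brain cells were then sorted, a step that selects the electroporated cells and their descendants. For the E12.5 libraries, whole microdissected dorsal telencephalon was used, from 2 samples labelled L3mbtl3 knockout (-/-), 2 labelled heterozygote (+/-) and 1 labelled wild-type. The last 3 served as controls, so most of the control group also carries a mutant allele by its label. L3mbtl3 encodes a chromatin protein with MBT domains, and the series' title ties it to the Polycomb complex PRC1 and to the timing of cortical neurogenesis. The comparisons ask how the imprinted genes differ with added L3mbtl3, with loss of L3mbtl3, and between the sorted E15.5 cells and the E12.5 tissue.

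Levels are given as CPM, a gene's counts relative to the library total after scaling with TMM factors over all 11 libraries, and as mean ± SD where a group is summarised. Differences are log2 fold changes from edgeR's quasi-likelihood test, and the words rose, fell and called are kept for genes with a Benjamini-Hochberg adjusted p under 0.05 over all genes tested. Library values are listed in the order of replicates 1, 2 and 3, and those of the E12.5 controls in the order heterozygote 1, heterozygote 2 and wild-type. Library totals were 16527551 to 26658718 counts, and a count of 0 allows up to 3 counts, or 0.105 to 0.177 CPM, depending on the library. L3mbtl3 itself stood at 1517, 1261 and 892 CPM in the gain libraries against 54.0, 49.98 and 59.5 in the GFP controls. The knockout label was not matched by a lower level, with 67.1 and 70.4 CPM in those libraries against 57.5, 57.8 and 58.1 in the E12.5 controls (log2 0.27, edgeR adjusted p = 0.0128), so those groups are named by their labels. By Xist and Y-linked counts the 3 GFP controls, the 3 E12.5 controls, gain replicate 2 and knockout replicate 1 were male, and gain replicates 1 and 3 and knockout replicate 2 were female.

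The largest differences lay between the sorted E15.5 GFP controls and the E12.5 control tissue. There 23 of 36 tested members were called (63.9%), where 62.3% of all 15968 genes tested were called (31.1% higher and 31.3% lower), so the share was near the background. At an unadjusted p under 0.05 the counts were 24 members and 66.2% of all genes. Of the 23, 15 were lower in the E15.5 cells and 8 higher, and the median log2 difference over the 36 was -0.43, against -0.02 over all genes tested. Igf2, Asb4, Magel2, Dlk1 and H19 had the largest falls, and Nap1l5, Peg13, Inpp5f, Snrpn and Usp29 the largest rises. The groups did not overlap for 10 members that were higher and 17 that were lower, where 72.1% of all genes tested did not overlap (34% higher and 38.1% lower). Age, cell sorting, electroporation and the heterozygote genotype all differ between these groups and cannot be told apart. In bulk samples fewer cells of a type and less RNA per cell cannot be told apart either. With library totals as the only scaling, the median of all genes shifted by -0.27 and the calls among members became 6 higher and 19 lower. The calls over all genes then were 3590 higher and 6525 lower, in place of 4963 and 4992.

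In the libraries labelled knockout, Peg10, Mest and Gnas rose and Usp29 fell. These were 4 of 36 tested members (11.1%), against 7.41% of all 16361 genes tested (3.63% higher and 3.78% lower). At an unadjusted p under 0.05 there were 11 members, and 22% of all genes tested. Over the 36 members 26 differences lay above 0 and 10 below, with a median of 0.08 against 0.00 over all genes. The 2 libraries labelled knockout lay outside the range of the 3 controls for 9 members that were higher and 3 that were lower, and 36.6% of all genes tested did so (14.4% higher and 22.3% lower). A single edgeR fit of all 11 libraries called 0 members and 15 of all genes in this comparison. The labels do not say that libraries of a group came from separate embryos or litters. Knockout replicates 1 and 2 differed in sex, as did gain replicate 2 from gain replicates 1 and 3, and the E12.5 controls hold 2 genotypes by their labels, so these cannot be repeats of 1 embryo. For the GFP controls, within the heterozygotes, and between gain replicates 1 and 3 (both female), the spread that the p-values measure may be technical.

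After electroporation of L3mbtl3, 0 of 35 tested members were called by edgeR, against 0.0136% of all 14698 genes tested (0.0068% higher and 0.0068% lower). At an unadjusted p under 0.05 there were 5 members, and 8.6% of all genes tested. DESeq2 called 1 member, Kcnq1ot1, and 119 of all genes, and limma's voom test with library quality weights called 9 members and 2001 of all genes. The groups did not overlap for Peg3, Usp29, Kcnq1ot1 and Ube3a, which were higher, and for Ndn, Mkrn3 and Nnat, which were lower, where 16.6% of all genes tested did not overlap (9.21% higher and 7.38% lower). The median over the 35 members was -0.15, against -0.03 over all genes. Without GFP control replicate 1 it was 0.12, and 4 members and 415 of all genes were called, the members all higher. Leaving out that library also turned the sign of 10 of the 35 differences, none of them called either way, among them Dlk1, Meg3, Rian, Mirg, Peg10, Magel2 and Asb4. The gain comparison shares its GFP controls with the E15.5 against E12.5 comparison, and the loss comparison shares its E12.5 controls with it, so the values below are set side by side and no agreement between comparisons is counted.

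**Figure D1:**
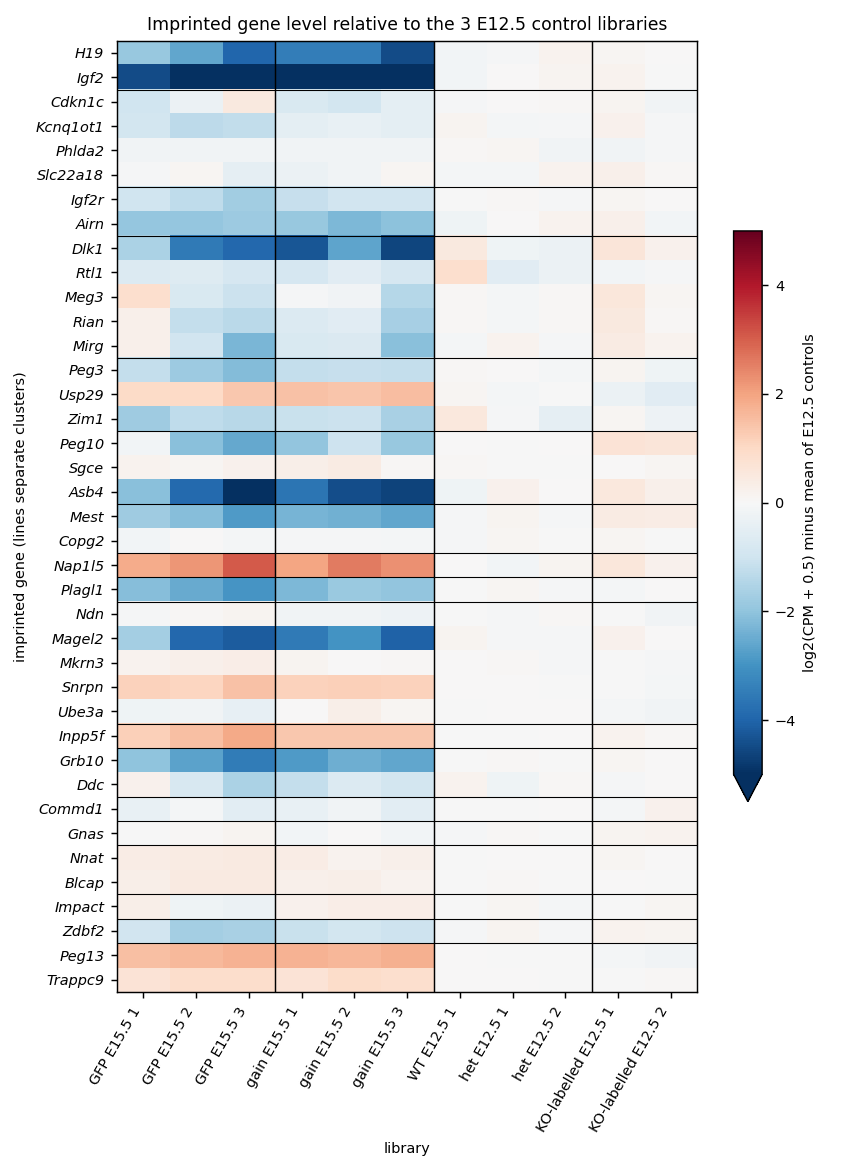
Level of each of the 39 imprinted genes (rows) in each of the 11 libraries (columns), as log2(CPM + 0.5) minus the mean of the 3 E12.5 controls. The 5 E12.5 libraries differ little from each other, while the 6 sorted E15.5 libraries show both strong falls (Igf2, Asb4, Grb10, Mest, Plagl1) and rises (Nap1l5, Peg13, Inpp5f, Snrpn, Usp29). The colour scale saturates at its lower end.

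Igf2 and H19 are neighbours on chromosome 7 that share enhancers and are expressed from opposite copies. Igf2 (chromosome 7, 142650766 to 142666816) encodes a fetal growth factor and is paternally expressed. It measured 20.5, 5.54 and 14.2 CPM in the GFP controls, against 459, 509 and 413 CPM in the E12.5 controls. The ranges lay far apart, and Igf2 was 33.7-fold lower in the sorted cells (log2 -5.07, SE 0.453, edgeR adjusted p = 0.000171). Over the alternatives the log2 difference ran from -6.13, by voom, to -4.70, without GFP control replicate 2. H19, the maternally expressed long noncoding RNA beside it (142575529 to 142578143), measured 113, 69.1 and 26.4 CPM in the GFP controls, against 407, 476 and 388 CPM at E12.5. Its log2 difference was -2.59 (SE 0.476, called, edgeR adjusted p = 0.00334). Both genes therefore fell, and the sorted libraries did not share their order: GFP control replicate 1 was highest for both, but replicate 2 was lowest for Igf2 and replicate 3 for H19.

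In the gain libraries Igf2 measured 1.79, 8.60 and 4.05 CPM. These overlapped the GFP controls, since gain replicate 2 lay above GFP control replicate 2 (log2 -1.48, SE 0.634, edgeR adjusted p = 0.583). The size was not stable, at -2.19 without gain replicate 2, -0.69 by voom and -0.65 with embryo sex as a term, and no alternative called it. H19 at 37.6, 38.5 and 18.7 CPM overlapped the controls as well (-1.14, SE 0.505, edgeR adjusted p = 0.585). In the libraries labelled knockout Igf2 measured 522 and 447 CPM and H19 452 and 434 CPM, all within or close to the range of the controls. The log2 differences were 0.09 for Igf2 (SE 0.108) and 0.08 for H19 (SE 0.0895), with edgeR adjusted p of 0.715 and 0.688.

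Igf2 is known to be strongly expressed in the meninges, choroid plexus and vessels of the fetal brain, so the markers of these cells are given beside it. Summed over 10 genes of meninges and mesenchyme, the level was 13.4 to 70.1 CPM in the GFP controls, 5.75 to 18.2 in the gain libraries, 1643 to 1837 in the E12.5 controls and 1703 to 2101 in the libraries labelled knockout. All 10 of these genes and 11 of 11 of endothelial cells and pericytes were called lower in the sorted E15.5 cells. So were 10 of 10 of choroid plexus and 10 of 10 of erythroid cells, where 31.3% of all genes tested were called lower. Microglia and macrophages differed from these lists, with 3 of 10 called lower and a sum of 37.0 to 69.3 CPM in the GFP controls, 15.4 to 22.7 in the gain libraries and 84.1 to 90.7 in the E12.5 controls. The endothelial sum was 18.5 to 24.9 CPM in the GFP controls, 7.08 to 12.1 in the gain libraries, 470 to 561 in the E12.5 controls and 526 to 544 in those labelled knockout. The choroid plexus sum was 14.9 to 31.0, 8.70 to 21.1, 613 to 674 and 299 to 300 CPM in the same order of groups. Some defining markers were at 0 in a sorted library, such as Foxc2 in GFP control replicate 2, Twist1 in replicate 3, and Lum and Foxc1 in gain replicate 1, while none of these lists had a marker at 0 at E12.5. Cortical lists differed too, given here as sorted E15.5 controls against E12.5 controls. Of 10 cortical neuron genes 9 rose and 0 fell (median log2 2.34), with sums of 8879 to 13806 against 2484 to 2721 CPM. Of 11 apical progenitor genes 0 rose and 8 fell (median log2 -1.41), with sums of 979 to 2082 against 3437 to 3618 CPM. Of 8 intermediate progenitor genes 4 rose and 2 fell, where 31.1% of all genes tested rose and 31.3% fell. The part of all these cell types in the differences of Igf2, H19 and the other members was not tested.

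**Figure D2:**
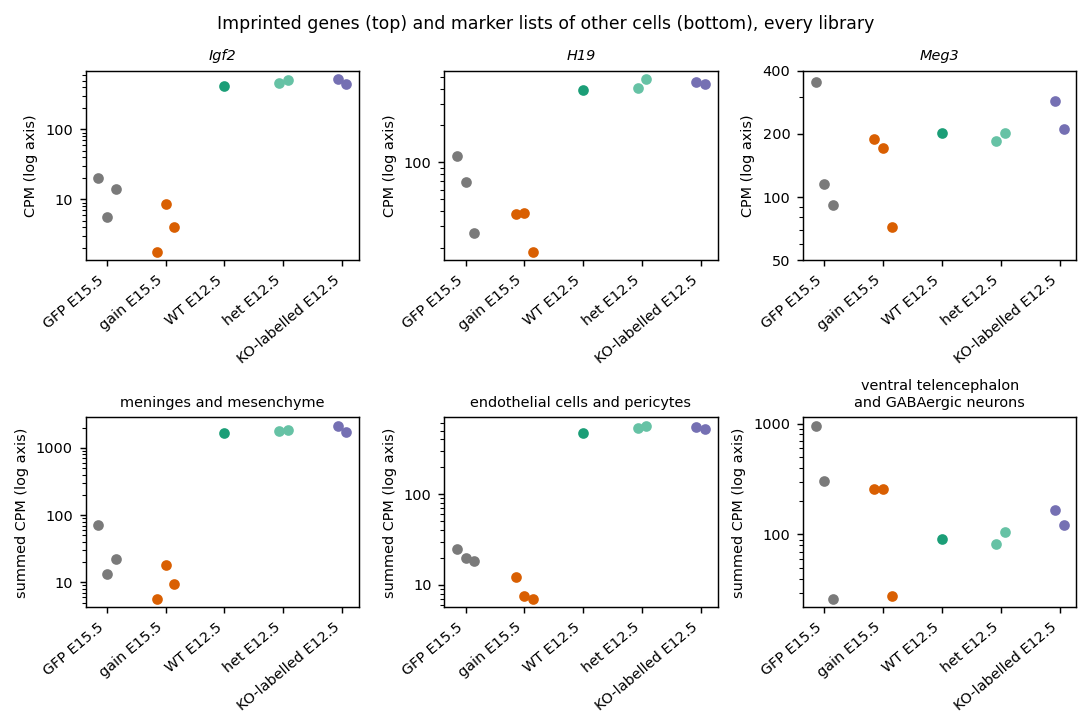
CPM on log axes in each of the 11 libraries for Igf2, H19 and Meg3, and for the summed markers of meninges, endothelial cells and ventral telencephalon. Igf2 and the meninges and endothelial sums separate the E12.5 tissue from the sorted E15.5 cells, while Meg3 and the ventral sum are highest in GFP control replicate 1.

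The receptor Igf2r, which clears IGF2 and is maternally expressed, and its antisense noncoding RNA Airn, which silences Igf2r on the paternal copy, lie on chromosome 17. Igf2r (12682406 to 12769664) had 62.8 to 108 CPM in the GFP controls and 206 to 222 CPM at E12.5, and fell (log2 -1.28, SE 0.183, edgeR adjusted p = 0.00116). Airn had 0.754 to 0.864 CPM against 3.65 to 5.02, and fell by 2.43 (SE 0.252, edgeR adjusted p = 0.000286). Igf2r and Airn were thus both lower in the sorted cells, and silencing of a copy was not measured. Their differences were 0.29 and -0.25 in the gain comparison and 0.08 and 0.10 in the loss comparison, none of them called. Grb10, an adaptor that dampens insulin and IGF receptor signalling and that switches from maternal to paternal expression in neurons, had 82.5 to 230.2 CPM in the GFP controls and 902 to 973 at E12.5. It fell by 2.58 (SE 0.345, edgeR adjusted p = 0.000859), with differences of -0.02 (gain) and 0.06 (loss), not called. Ddc, the neighbouring decarboxylase of dopamine and serotonin synthesis, was near the limit of detection at 0 to 1.21 CPM and missed the count filter in the gain comparison. It was not called in the other two (loss 0.00, E15.5 against E12.5 -0.88), though without GFP control replicate 1 the latter became -2.48 (edgeR adjusted p = 0.0420, range 0.0256 to 0.687 over the alternatives).

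The Dlk1 and Meg3 cluster on chromosome 12 holds the paternally expressed Dlk1 and Rtl1 and the maternally expressed noncoding RNAs Meg3, Rian and Mirg. Dlk1 (109452823 to 109463336), a transmembrane relative of the Notch ligands, measured 6.28, 1.24 and 0.810 CPM in the GFP controls, against 16.8, 16.1 and 27.99 CPM at E12.5. GFP control replicate 1 was the high one, yet still below every E12.5 control. Dlk1 fell, with a log2 difference of -2.83 (SE 0.721, edgeR adjusted p = 0.0129). Without GFP control replicate 1 it stood at -4.29 (edgeR adjusted p = 0.000183), and without replicate 2 at -2.49 with the call lost (edgeR adjusted p = 0.0505, range 6.64e-05 to 0.0505 over the alternatives).

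Meg3 (109541001 to 109571726), the first of the noncoding RNAs, measured 353, 116 and 91.5 CPM in the GFP controls, against 184, 201 and 201 CPM at E12.5. Replicate 1 thus lay above the E12.5 controls and the other two below, and there was no call (log2 -0.05, SE 0.481, edgeR adjusted p = 0.937). Rian and Mirg, read from the same strand downstream, shared this order, with 154, 57.2 and 51.3 CPM for Rian and 6.99, 2.77 and 0.810 CPM for Mirg. Their differences were -0.56 and -0.70, not called. Without GFP control replicate 1, Meg3 (-0.90), Rian (-1.24) and Mirg (-1.70) were all called lower, with edgeR adjusted p of 0.000748, 7.31e-05 and 0.0167. Over the alternatives their adjusted p ran from 0.000748 to 0.982 for Meg3, 7.27e-05 to 0.564 for Rian and 0.00379 to 0.593 for Mirg.

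GFP control replicate 1 also held the most RNA of the ventral telencephalon, where GABAergic neurons are born. The sum over 11 markers of that region was 948, 303 and 26.5 CPM in the GFP controls, 255, 258 and 28.2 in the gain libraries, 82.5 to 105 in the E12.5 controls and 165 and 123 in the libraries labelled knockout. Nkx2-1 was at 0 in GFP control replicate 1 and gain replicate 1, and Dlx6 in GFP control replicate 3. Under added L3mbtl3, 10 of 10 tested ventral genes, 10 of 10 of microglia and 9 of 9 of endothelial cells lay below 0 (medians -1.15, -2.40 and -1.25), and edgeR called none of them. At an unadjusted p under 0.05 these were 0, 9 and 5 genes. DESeq2 called 0, 7 and 1, and voom 0, 9 and 4. The part of these cells in the levels of Meg3, Rian, Mirg and Dlk1, or in any gain difference, was not tested.

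In the libraries labelled knockout Meg3 stood at 288 and 210 CPM, both above the controls, and Dlk1 at 30.2 and 22.8 CPM, across them. Neither was called (0.36 with SE 0.170 for Meg3 and 0.40 with SE 0.349 for Dlk1, edgeR adjusted p of 0.341 and 0.617). Rian (0.30) and Mirg (0.31) were not called either. Knockout replicate 1 was the higher of the pair for all 4 genes. Without knockout replicate 2, which leaves a single knockout library, Meg3 stood at 0.58 and Rian at 0.50. Dlk1 was called without the wild-type library (0.71, edgeR adjusted p = 0.0259). Over the alternatives the adjusted p of these 3 ran up to 1. The 4 gain differences were -1.22 for Dlk1, -0.38 for Meg3, -0.33 for Rian and -0.48 for Mirg, none called. Without GFP control replicate 1 they were 0.24, 0.48, 0.37 and 0.52, again not called, and Dlk1 stood at -2.66 without gain replicate 2 and at -0.05 with embryo sex as a term. Rtl1, a retrotransposon-derived gene of placenta and muscle, had at most 1.096 CPM, in the wild-type library, and was tested in no comparison.

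Peg3, Usp29 and Zim1 lie together on chromosome 7. Peg3, a zinc finger protein, and Usp29, a deubiquitinase, are both paternally expressed and are read in opposite directions from start sites 162 bases apart. They moved in opposite directions between the E15.5 and E12.5 controls, so the stretch they share is shown. RefSeq's window for Usp29 (chr7:6730333-6730632, GRCm38.p6, plus strand, 250 bases before the start to 50 after) shares 263 bases with that of Peg3. The capitals mark its 17 CpG dinucleotides, the sites at which imprints are methylated. No methylation was measured here.

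Usp29: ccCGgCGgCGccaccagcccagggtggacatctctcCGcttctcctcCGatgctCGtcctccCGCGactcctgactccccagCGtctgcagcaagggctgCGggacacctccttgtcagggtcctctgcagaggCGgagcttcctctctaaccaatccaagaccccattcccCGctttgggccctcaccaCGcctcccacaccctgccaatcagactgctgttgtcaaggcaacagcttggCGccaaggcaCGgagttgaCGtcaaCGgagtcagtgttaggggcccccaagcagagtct

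Peg3 measured 152, 98.9 and 76.8 CPM in the GFP controls, against 355, 328 and 369 CPM in the E12.5 controls. It fell (log2 -1.66, SE 0.237, edgeR adjusted p = 0.00113). Usp29 measured 38.2, 39.3 and 51.1 CPM in the GFP controls, against 18.3, 19.3 and 21.0 at E12.5, and rose by 1.16 (SE 0.150, edgeR adjusted p = 0.000766). Neither gene's groups overlapped. Per exon length, Peg3 stood at 10.5 to 11.9 times Usp29 in the E12.5 controls and at 0.922 to 2.44 times Usp29 in the GFP controls. Within the GFP controls replicate 1 had the most Peg3 and the least Usp29, and replicate 3 the reverse.

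In the libraries labelled knockout Usp29 stood at 16.0 and 12.9 CPM, below all 3 controls, and fell by 0.42 (SE 0.109, edgeR adjusted p = 0.0424). Peg3 stayed across the range of the controls at 381 and 304 CPM (-0.02, SE 0.108, not called). The call of Usp29 was lost in 7 of 12 alternatives, among them leaving out heterozygote replicate 2 (edgeR adjusted p = 0.112) or the wild-type library (edgeR adjusted p = 0.137). A term for embryo sex also ended the call (log2 -0.27, edgeR adjusted p = 0.291), and over the alternatives the adjusted p ran from 0.000232 to 0.731. Without knockout replicate 2, which leaves a single knockout library, Usp29 stood at -0.27.

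In the gain libraries both genes lay above every GFP control, with 54.4, 51.6 and 57.2 CPM for Usp29 and 152.09, 156 and 155 CPM for Peg3. For Peg3 the margin was slight, since GFP control replicate 1 stood at 152.05 CPM. Usp29 differed by 0.35 (SE 0.137, edgeR adjusted p = 0.566) and Peg3 by 0.50 (SE 0.229, edgeR adjusted p = 0.585), and neither was called. Peg3 was called without GFP control replicate 1 (0.83, edgeR adjusted p = 0.0420, range 0.0121 to 0.997 over the alternatives). Zim1, a maternally expressed zinc finger gene beside Peg3, had 0.754 to 1.30 CPM in the GFP controls and 2.68 to 5.62 at E12.5. It fell by 1.88 (SE 0.382, edgeR adjusted p = 0.00512), and differed by 0.32 (gain) and -0.15 (loss), not called.

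Peg10, Sgce and Asb4 form a cluster on chromosome 6. Peg10 (4747306 to 4760517), a paternally expressed gene derived from a retrotransposon and essential in the placenta, had the largest fold change among the members called in the loss comparison. It measured 157 and 147 CPM in the libraries labelled knockout and 94.4, 98.0 and 98.4 CPM in the controls. Both knockout values lay well above all 3 controls, and Peg10 rose by 0.66 on the log2 scale, or 1.58-fold (SE 0.0502, edgeR adjusted p = 2.42e-05). Sgce, a sarcoglycan that starts 102 bases away on the other strand and is also paternally expressed, stood at 22.9 and 24.2 CPM against 22.3 to 23.8 (0.06, SE 0.0743, edgeR adjusted p = 0.703). Per exon length Sgce was 0.314 and 0.357 times Peg10 in the libraries labelled knockout and 0.495 to 0.522 times Peg10 in the controls. Of this pair with start sites 102 bases apart, Peg10 alone was called.

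Asb4, a maternally expressed substrate adaptor of a ubiquitin ligase further along the cluster, stood at 27.7 and 22.8 CPM against 22.4, 19.1 and 16.3, just above the controls (0.40, SE 0.124, edgeR adjusted p = 0.0953). It was called without heterozygote replicate 1 (0.51, edgeR adjusted p = 0.0306, up to 1 over the alternatives). In the sorted cells Asb4 had 4.12, 0.825 and 0 CPM and fell by 3.49 against the E12.5 controls (SE 0.948, edgeR adjusted p = 0.0166). The size of that fall depended on single libraries. It was -5.56 without GFP control replicate 1 and -2.89 without replicate 3. The call was lost without replicate 2 (edgeR adjusted p = 0.0705), heterozygote 1 (edgeR adjusted p = 0.0587) or heterozygote 2 (edgeR adjusted p = 0.0513), over a range of 3.13e-05 to 0.0705.

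Peg10 differed widely between the GFP controls, at 89.2, 22.3 and 15.9 CPM, with replicate 1 close to the E12.5 level. It was not called against the E12.5 controls (-1.17, SE 0.606, edgeR adjusted p = 0.134) and stood at -2.32 without replicate 1 (edgeR adjusted p = 4.43e-05, range 5.20e-06 to 0.321). Sgce was 24.3 to 26.7 CPM there and was not called (0.18). In the gain comparison Peg10 (24.3, 46.7 and 26.0 CPM, -0.40), Sgce (0.11) and Asb4 (-1.49) were not called, and the ranges overlapped. Peg10 stood at 0.77 and Asb4 at 0.55 without GFP control replicate 1, also not called, and voom gave 0.34 for Peg10 and -0.60 for Asb4. Without gain replicate 1 Asb4 stood at -2.21.

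Mest, the paternally expressed gene of a hydrolase-like protein of mesoderm and progenitor cells, and Nap1l5, an intronless paternally expressed relative of nucleosome assembly proteins, lie apart on chromosome 6. Their windows are shown because Mest rose in the loss comparison, Nap1l5 had the largest rise of the members between E12.5 and E15.5, and both hold 2 copies of TGCCGC, the methylated hexamer that the imprint keeper ZFP57 binds. TGCCGC was searched on both strands, on which it reads GCGGCA on the other. It occurs in 13 of 48 windows of the members (12 of the 31 members with a RefSeq window) and in 11.6% of all 32851 windows of the same 300 bases. At least 2 copies occur in 4 of the 48 members' windows (8.33%) and in 1.53% of all windows. The 4 windows belong to 3 members. Of them 2 are overlapping windows of Mest, starting at 30737800 and 30737803, that hold the same 2 copies. The one with the most copies, 3, is a window of Zdbf2 (chr1:63200108-63200407). That window lies outside the counted gene, which starts at 63273265. The Zdbf2 window at the counted start (chr1:63273019-63273318) holds 0 copies. Zdbf2 fell between E12.5 and E15.5. A match describes the letters only. The members' windows had a median of 14.5 CpG, and all windows 7. Capitals mark the hexamer in the window of Mest (chr6:30737800-30738099, GRCm38.p6, plus strand) and in that of Nap1l5 (chr6:58907077-58907376, GRCm38.p6, minus strand).

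Mest: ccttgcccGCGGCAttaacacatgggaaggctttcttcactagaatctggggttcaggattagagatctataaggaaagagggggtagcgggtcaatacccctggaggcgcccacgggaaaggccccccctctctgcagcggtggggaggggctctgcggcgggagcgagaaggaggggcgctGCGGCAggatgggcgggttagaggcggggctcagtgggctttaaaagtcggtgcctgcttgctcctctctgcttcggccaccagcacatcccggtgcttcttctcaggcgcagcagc
Nap1l5: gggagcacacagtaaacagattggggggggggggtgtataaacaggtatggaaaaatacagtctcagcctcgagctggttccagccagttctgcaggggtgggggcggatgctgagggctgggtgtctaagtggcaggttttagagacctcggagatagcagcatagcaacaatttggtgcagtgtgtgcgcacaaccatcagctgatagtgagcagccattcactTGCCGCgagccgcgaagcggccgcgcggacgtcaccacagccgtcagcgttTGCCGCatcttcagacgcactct

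Mest measured 918 and 896 CPM in the libraries labelled knockout and 750, 664 and 652 CPM in the E12.5 controls. Both values lay above every control, and Mest rose by 0.41 on the log2 scale, or 1.33-fold (SE 0.0472, edgeR adjusted p = 0.000458). In the sorted cells it was much lower, at 201, 157 and 95.8 CPM in the GFP controls, a fall of 2.16 against E12.5 (SE 0.253, edgeR adjusted p = 0.000489). The gain libraries at 138, 130 and 112 CPM lay within the GFP controls (-0.25, SE 0.247, not called). Copg2, a coat protein gene whose 3' end meets that of Mest and which is maternally biased in some tissues, was level at 104 to 122 CPM over all 11 libraries. Its differences were 0.00 (gain), 0.06 (loss) and -0.04 (E15.5 against E12.5), none called.

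Nap1l5 measured 16.6, 21.3 and 39.7 CPM in the GFP controls, against 3.86, 4.70 and 4.29 CPM at E12.5. It rose by 2.62, or 6.16-fold (SE 0.352, edgeR adjusted p = 0.000878), with GFP control replicate 3 the highest. The libraries labelled knockout, at 6.59 and 5.05 CPM, lay above the controls without a call (0.47, SE 0.167, edgeR adjusted p = 0.121), and the gain libraries overlapped the GFP controls (-0.15, not called).

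**Figure D3:**
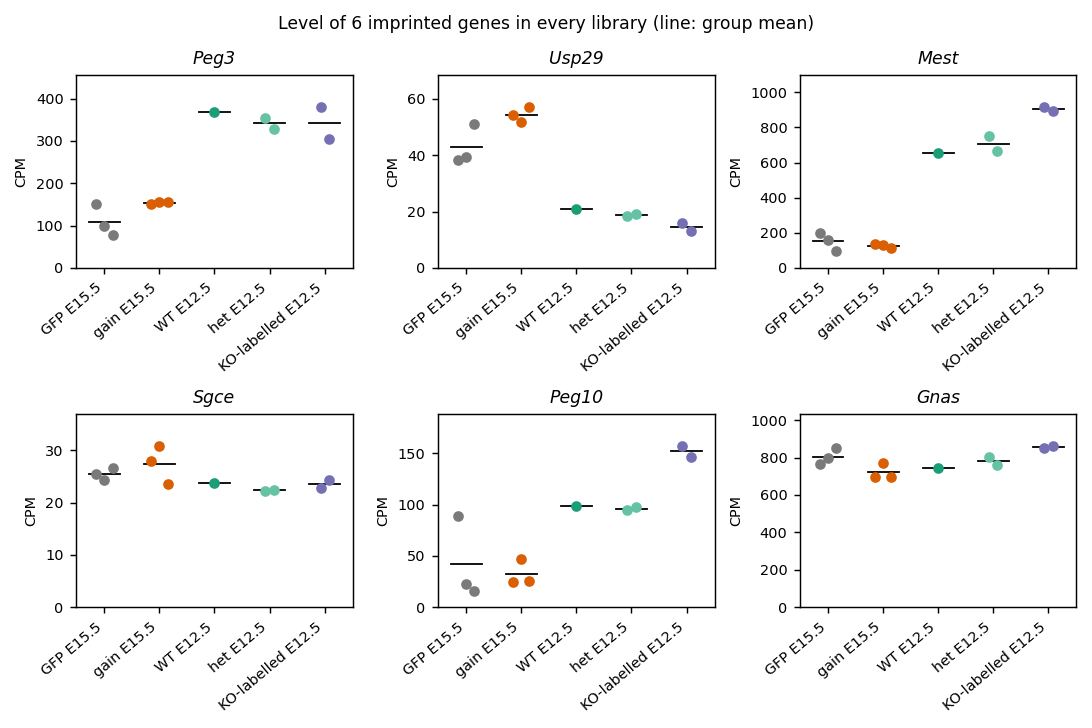
CPM in each of the 11 libraries for Peg3, Usp29, Mest, Sgce, Peg10 and Gnas, with points for libraries and lines for group means. Usp29 runs opposite to Peg3 between E12.5 and E15.5, and Peg10 in the 2 libraries labelled knockout lies above all 3 controls while Sgce does not.

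Plagl1 and Cdkn1c are growth restraining genes, a zinc finger factor that is paternally expressed and a maternally expressed inhibitor of cyclin-dependent kinases. Plagl1 (13060504 to 13131694) lies on chromosome 10, as L3mbtl3 does, 13142774 bases away. It measured 111, 84.8 and 62.6 CPM in the GFP controls, against 529, 464 and 480 CPM in the E12.5 controls, and fell (log2 -2.49, SE 0.201, edgeR adjusted p = 0.000119). The gain libraries had 103, 137 and 125 CPM, of which replicate 1 lay within the GFP controls (0.50, SE 0.211, edgeR adjusted p = 0.577). The libraries labelled knockout, at 461 and 495 CPM, were level with the controls (-0.02, SE 0.0493, edgeR adjusted p = 0.845).

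Cdkn1c, which helps progenitors leave the cell cycle, measured 74.5, 123 and 211 CPM in the GFP controls, against 153, 155 and 144 CPM at E12.5. The sorted controls thus lay on both sides of the tissue, and there was no call (-0.12, SE 0.342, edgeR adjusted p = 0.778). Without GFP control replicate 3, the highest, it was called lower (-0.59, edgeR adjusted p = 0.0340, range 0.00652 to 0.932). In the gain libraries it measured 88.1, 79.3 and 106 CPM (-0.57, SE 0.341, not called), and in those labelled knockout 164 and 132 CPM (-0.01, not called). Without knockout replicate 1, which leaves a single knockout library, Cdkn1c stood at -0.17. The order of the GFP controls for Cdkn1c was also that of the summed neuronal markers, at 8879, 11031 and 13806 CPM, and the reverse of the apical progenitor sum, at 2082, 1650 and 979 CPM. In the gain libraries Cdkn1c followed the apical order and not the neuronal one. There the neuronal sums were 10951, 10966 and 10860 CPM and the apical sums 1514, 1506 and 1530 CPM, which lay close together. The part of these cells in the level of Cdkn1c was not tested.

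Kcnq1ot1, the paternally expressed noncoding RNA that silences Cdkn1c and its neighbours on the same copy, had the smallest p of the members in the gain comparison. It measured 80.4, 85.8 and 78.8 CPM in the gain libraries and 59.4, 44.9 and 47.5 CPM in the GFP controls. All 3 gain libraries lay above all 3 controls, a difference of 0.69 or 1.62-fold (SE 0.127), but edgeR did not call it (adjusted p = 0.457). DESeq2 (adjusted p = 0.00143), limma's voom test with quality weights (adjusted p = 0.0108), a single edgeR fit of all 11 libraries (adjusted p = 0.0402) and edgeR without GFP control replicate 1 (0.84, adjusted p = 0.0318) did call it. The other 9 of 13 alternatives did not, over a range of 0.00143 to 0.997. Against the E12.5 controls (105 to 122 CPM) it fell by 1.12 in the GFP controls (SE 0.130, edgeR adjusted p = 0.000463), and in the libraries labelled knockout it was not called (0.10). Phlda2, a growth restrainer of the placenta, had no count in the 6 sorted libraries, which allows up to 0.151 to 0.177 CPM, and at most 0.105 CPM at E12.5, or 3 counts. Slc22a18, a transporter, had at most 0.309 CPM. Neither was tested in any comparison.

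The Snrpn domain on chromosome 7 holds the genes lost in Prader-Willi syndrome (paternally expressed Ndn, Magel2, Mkrn3 and Snrpn) and Angelman syndrome (Ube3a, maternally expressed in neurons). Ndn, which restrains proliferation in neurons, measured 152, 154 and 143 CPM with added L3mbtl3, against 164, 177 and 186 CPM in the GFP controls. Its groups did not overlap, but the difference of -0.23 (SE 0.0816) was not called (edgeR adjusted p = 0.551). It was level between the E15.5 and E12.5 controls (0.06) and in the loss comparison (-0.08), both not called. Ube3a, a ubiquitin ligase, had 275, 336 and 293 CPM in the gain libraries and 235, 243 and 208 CPM in the GFP controls, again without overlap and without a call (0.40, SE 0.105, edgeR adjusted p = 0.486).

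Against the E12.5 controls (269 to 280 CPM) Ube3a fell by 0.24 in the GFP controls (SE 0.0790, edgeR adjusted p = 0.0327). That call was lost without heterozygote 1 (edgeR adjusted p = 0.0968), heterozygote 2 (edgeR adjusted p = 0.113) or the wild-type library (edgeR adjusted p = 0.0980), over a range of 0.00307 to 0.113. Its loss difference was -0.12 (edgeR adjusted p = 0.101), and -0.16 without knockout replicate 1, which leaves a single knockout library. Magel2, a regulator of ubiquitin ligases in endosomal transport, measured 5.48, 0.766 and 0.594 CPM in the GFP controls, against 18.1, 17.97 and 20.7 at E12.5. It fell by 3.01 (SE 0.754, edgeR adjusted p = 0.0121), and by 4.77 without GFP control replicate 1, the high one. It was not called in the gain (-0.87) or loss (0.13) comparison. The gain difference was 0.90 without GFP control replicate 1, 0.34 by voom and -0.26 with embryo sex as a term.

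Snrpn, which encodes a splicing protein abundant in neurons, measured 109, 103 and 136 CPM in the GFP controls, against 49.0, 47.8 and 49.9 at E12.5. It rose by 1.27 (SE 0.124, edgeR adjusted p = 0.000240), and differed by -0.07 (gain) and -0.04 (loss), not called. Of its exon bases 27.3% overlap other genes of the same strand, where reads cannot be assigned, so its level is uncertain. Mkrn3, a ubiquitin ligase tied to the timing of puberty, kept 15.0 to 19.7 CPM throughout. Its differences were -0.17 (gain), -0.03 (loss) and 0.28 (E15.5 against E12.5, edgeR adjusted p = 0.0622), the last called without GFP control replicate 1 (0.32, edgeR adjusted p = 0.0297, range 0.0108 to 0.950).

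Gnas encodes the stimulatory G protein subunit and several imprinted isoforms of opposite parental origin, whose reads the counts add up. It measured 851 and 861 CPM in the libraries labelled knockout and 803, 762 and 743 CPM in the E12.5 controls. Both values lay above the controls, and Gnas rose by 0.17, or 1.12-fold (SE 0.0375, edgeR adjusted p = 0.0189). Gnas was no longer called without heterozygote 2 (edgeR adjusted p = 0.0896) or the wild-type library (edgeR adjusted p = 0.147), over a range of 0.000620 to 0.941. It was not called in the gain comparison (694 to 771 CPM against 766 to 851, -0.15) or between E15.5 and E12.5 (0.09).

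**Figure D4:**
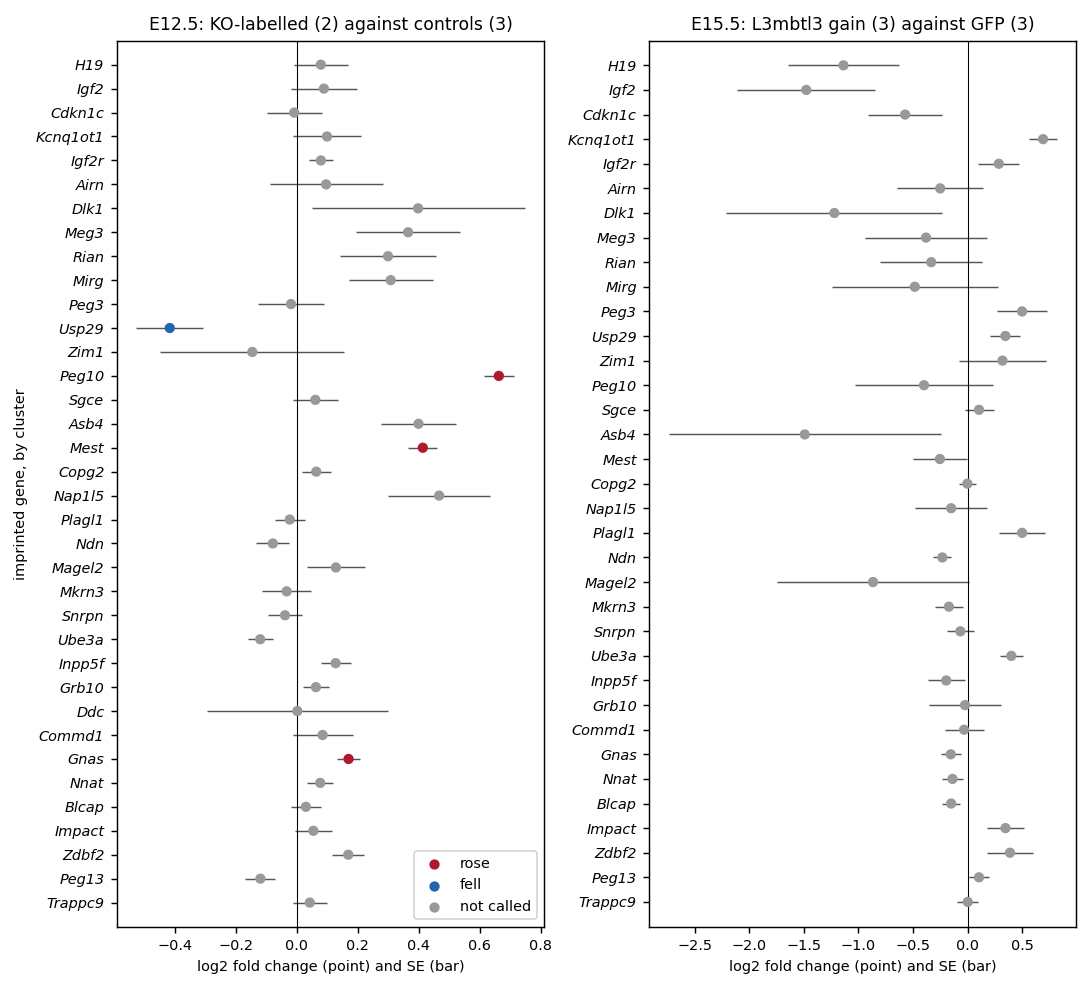
Log2 fold change with its SE for each tested imprinted gene in the loss comparison (36 genes) and the gain comparison (35 genes), coloured where called. In the loss panel Peg10, Mest, Gnas and Usp29 are called with short error bars, and in the gain panel no gene is called and the bars of Igf2, Dlk1 and Asb4 are long.

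Nnat, a paternally expressed proteolipid of differentiating neurons that lies within an intron of Blcap, was the most abundant member per exon length in every group. Its mean length-scaled level (TPM) was 2410 in the GFP controls and 2210 in the E12.5 controls. It had 1348 to 1416 CPM in the GFP controls and 1016 to 1049 CPM at E12.5, and rose by 0.44 (SE 0.0710, edgeR adjusted p = 0.00188). Blcap, a small membrane protein gene, rose by 0.42 (SE 0.0792, edgeR adjusted p = 0.00348), from 71.4 to 74.6 CPM at E12.5 to 88.6 to 100 CPM. With library totals as the only scaling both stayed above 0 but were not called (0.17 and 0.15, edgeR adjusted p of 0.0605 and 0.106, where other alternatives reached 9.26e-09 and 8.65e-06). Under that scaling Gnas, Ndn, Copg2 and Commd1 were called lower. Neither Nnat nor Blcap was called in the gain (-0.14 and -0.15) or loss (0.08 and 0.03) comparison.

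Peg13, a paternally expressed noncoding RNA of the brain, lies within Trappc9 on chromosome 15 on the same strand. It measured 272, 290 and 317 CPM in the GFP controls, against 94.5, 93.7 and 95.8 CPM at E12.5, and rose by 1.65, or 3.15-fold (SE 0.0858, edgeR adjusted p = 3.27e-05). Trappc9, a vesicle transport gene biased to the maternal copy in brain, rose by 0.85 (SE 0.0871, edgeR adjusted p = 0.000278), from 39.6 to 41.0 CPM to 65.8 to 74.5 CPM. Their gain differences were 0.11 and 0.00 and their loss differences -0.12 and 0.04, none called. Inpp5f, a phosphoinositide phosphatase with an imprinted short isoform, measured 234, 293 and 382 CPM in the GFP controls, against 101, 104 and 102 CPM at E12.5. It rose by 1.59, or 3.00-fold (SE 0.180, edgeR adjusted p = 0.000435), and was not called in the gain (-0.20) or loss (0.13) comparison.

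Zdbf2, a paternally expressed zinc finger gene that bears on hypothalamic growth control, had 31.1 to 52.5 CPM in the GFP controls and 97.8 to 113 at E12.5, and fell by 1.39 (SE 0.203, edgeR adjusted p = 0.00126). In the gain comparison it differed by 0.39 and was called without GFP control replicate 1 (0.68, edgeR adjusted p = 0.0430, range 0.0164 to 0.997). In the loss comparison it differed by 0.17 (edgeR adjusted p = 0.0749) and was called without heterozygote 1 (0.22, edgeR adjusted p = 0.0321, up to 1 over the alternatives). Impact, a paternally expressed regulator of translation, had 36.8 to 56.7 CPM over all libraries. Its differences were 0.35 (gain), 0.05 (loss) and -0.03 (E15.5 against E12.5). Without GFP control replicate 1 the first became 0.57 (edgeR adjusted p = 0.0433, range 0.0170 to 0.997) and the last -0.24 (edgeR adjusted p = 0.0350, range 0.0350 to 0.996). Commd1, a gene of copper handling with a maternal bias in brain, had 11.4 to 19.6 CPM. Its differences were -0.03, 0.08 and -0.31, the last called without GFP control replicate 2 (-0.43, edgeR adjusted p = 0.0463, range 0.0161 to 0.268).

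**Figure D5:**
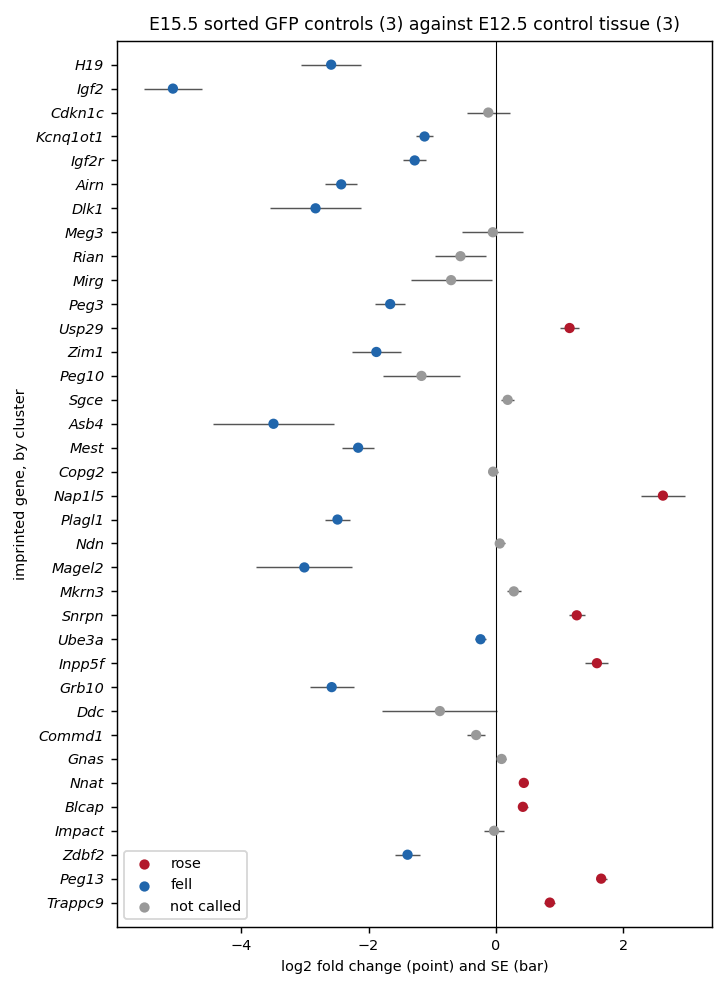
Log2 fold change with its SE for the 36 tested imprinted genes between the sorted E15.5 GFP controls and the E12.5 controls, coloured where called. Called genes run from -5.07 for Igf2 to 2.62 for Nap1l5, and Dlk1, Magel2 and Asb4 have the widest error bars among them.

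Calls in both directions were found among the paternally expressed genes. In the class of maternally expressed genes the only rise was that of Trappc9, which is biased to the maternal copy in brain. Every other call in that class was a fall. Between E15.5 and E12.5, 5 of 19 tested paternally expressed genes rose and 9 fell (73.7% called, median -1.12), and 1 of 12 maternally expressed genes rose and 5 fell (50% called, median -0.43), where 62.3% of all genes tested were called. In the loss comparison the calls were 2 risen and 1 fallen of the 19 paternally expressed genes, 0 of the 12 maternally expressed genes by edgeR (3 at an unadjusted p under 0.05, and Asb4 by DESeq2), and Gnas among the 5 genes with isoform- or tissue-dependent imprinting, where 7.41% of all genes tested were called. The difference between these classes was not tested.

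The order of levels per exon length changed between the tissues. In the E12.5 controls it was led by Nnat, H19 (697 TPM), Mest (680 TPM), Ndn (405 TPM) and Grb10 (398 TPM). H19 had overlapping values there with Mest, and Ndn with Grb10, so these neighbours in the order did not differ beyond their spread. In the GFP controls the order was Nnat, Ndn (339 TPM), Gnas (229 TPM), Cdkn1c (219 TPM) and Peg13 (197 TPM), while H19 ranked 10, Grb10 12 and Igf2 27 of the 39. Cdkn1c overlapped its neighbours in that order because its own values spread widely.

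The members also varied among libraries of 1 group. Between the 3 GFP controls the level differed by more than 1 log2 unit for 13 of 35 tested members (37.1%), and for 17.5% of all genes tested. Between the 3 gain libraries it did so for 7 of 35 (against 4.33%), and between the 3 E12.5 controls for 0 of 36 (against 0.752%). GFP control replicate 1 was highest for 17 of the 35 (48.6%, and 41.0% of all genes tested) and replicate 3 for 13 (37.1%, and 39.6% of all genes). Gain replicate 2, the male one, was highest of its group for 23 of 35 members (65.7%), and for 37.2% of all genes tested.

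Genes that act on the same loci or in the same pathways were followed as lists. Of 44 other imprinted genes 43 were in the files (Zim3 was not). In the loss comparison 5 of 34 tested rose and 1 fell, with a median of 0.04, where 7.41% of all genes tested were called. Sfmbt2, a paternally expressed Polycomb-type gene with MBT domains, rose by 1.67 (13.4 ± 0.996 against 4.32 ± 0.754 CPM, SE 0.149, edgeR adjusted p = 8.43e-05), Adam23 by 0.57 and Atp10a, a phospholipid flippase, by 0.45. Rasgrf1, an exchange factor for Ras proteins, fell by 1.42 (0.758 ± 0.00893 against 2.08 ± 0.253 CPM, SE 0.266, edgeR adjusted p = 0.00813). The call of Atp10a was lost in 7 of 12 alternatives, among them leaving out heterozygote 1 (edgeR adjusted p = 0.0702) or heterozygote 2 (edgeR adjusted p = 0.0902).

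Between E15.5 and E12.5, 10 of 32 tested genes of that list rose and 12 fell, with a median of -0.14, where 62.3% of all genes tested were called. Among the largest falls, Slc38a4, an amino acid transporter, stood at 0.0838 ± 0.145 CPM in the GFP controls, of which 2 were at 0, against a mean of 12.7 at E12.5. Kcnq1, a potassium channel gene of the Cdkn1c domain, stood at 0.0196 ± 0.0340 CPM, of which 2 were at 0, against a mean of 1.00. No fold is given for these because 2 of their 3 GFP controls are at 0. Dcn, a proteoglycan that also stands on the meninges list, fell by 5.36 (-6.26 without GFP control replicate 1), and Cobl, an actin nucleator, fell as well (log2 -3.39). The size for Cobl ran from -6.99 without GFP control replicate 1 to -2.79 without replicate 3. The call of Cobl was lost in 6 of 12 alternatives, among them leaving out GFP control replicate 2 (edgeR adjusted p = 0.0683), heterozygote 1 (edgeR adjusted p = 0.0694), heterozygote 2 (edgeR adjusted p = 0.0663) or the wild-type library (edgeR adjusted p = 0.0659). With added L3mbtl3 edgeR called 0 of 28 (7 at an unadjusted p under 0.05), DESeq2 1 and voom 9.

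Of 19 factors that set or keep imprints, 17 were tested, and edgeR called 0 in the gain and 0 in the loss comparison. At an unadjusted p under 0.05 these were 2 and 5, with 0 and 0 by DESeq2 and 5 and 0 by voom. Dnmt3l and Dppa3, which act in germ cells and the early embryo, had no count in any library. Between E15.5 and E12.5, 4 of the 17 rose and 9 fell, with a median of -0.28, against 62.3% of all genes called. Zfp57, the zinc finger protein that binds methylated TGCCGC, rose by 1.59 (331 ± 45.6 against 112 CPM, SE 0.113, edgeR adjusted p = 8.02e-05), and Ehmt2, a histone H3 lysine methyltransferase, by 1.16. Uhrf1, which guides the maintenance methyltransferase at replication, fell by 1.57 and Dnmt3b, a de novo methyltransferase, by 1.51. The call of Uhrf1 was lost in 5 of 12 alternatives, among them leaving out GFP control replicate 2 (edgeR adjusted p = 0.0779), heterozygote 1 (edgeR adjusted p = 0.0662), heterozygote 2 (edgeR adjusted p = 0.0589) or the wild-type library (edgeR adjusted p = 0.0588).

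Among 12 partners of IGF signalling, 5 of 12 tested rose in the loss comparison and none fell, with a median of 0.19, against 7.41% of all genes called. Igfbp3, a secreted binding protein of IGF, rose by 0.61 (25.7 ± 1.25 against 17.1 CPM, SE 0.0725, edgeR adjusted p = 0.000613). The 3 genes of mRNA-binding proteins that bind the Igf2 transcript rose by 0.31 (Igf2bp1), 0.35 (Igf2bp2) and 0.25 (Igf2bp3). That of Igf2bp1 was lost without the wild-type library (edgeR adjusted p = 0.0547), and a single fit of all 11 libraries called none of these 4. Between E15.5 and E12.5, 2 of the 12 rose and 8 fell (median -0.79), against 62.3% of all genes called. Igf1, the postnatal relative of Igf2, fell by 5.01 (-5.73 without GFP control replicate 3 and -6.20 by voom) and Igfbp5 by 1.89, while Irs2, an adaptor of the receptors, rose by 1.52. With added L3mbtl3 edgeR called 0 of 11 (1 at an unadjusted p under 0.05), DESeq2 0 and voom 5.

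Marker lists of other cell types also differed with the loss labels. Of the choroid plexus genes 7 of 10 fell in the libraries labelled knockout, and of the intermediate progenitor genes 4 of 8 fell. Of the ventral telencephalon genes 4 of 11 rose. Of all genes tested 3.63% rose and 3.78% fell. All 8 intermediate progenitor differences lay below 0. Among apical progenitor genes 1 of 11 rose and 2 fell, with 8 differences above 0 and 3 below. There 6 had an unadjusted p under 0.05, and DESeq2 and voom each called 4. Among neuronal genes 1 of 10 fell by edgeR, and all 10 differences lay below 0 (median -0.21). Of these 6 had an unadjusted p under 0.05, as did 22% of all genes tested, and DESeq2 called 4 and voom 1. Among microglia genes 1 of 10 rose, and 0 of 10 erythroid genes were called. Of the meninges and mesenchyme genes 0 of 10 rose and 1 fell by edgeR, with 6 differences above 0 and 4 below. There 4 had an unadjusted p under 0.05, DESeq2 called 3 and voom 3. Of the endothelial genes edgeR called 0 of 11 (2 at an unadjusted p under 0.05, and 1 by DESeq2). The part of these cell types in the calls of Peg10, Mest, Gnas and Usp29 was not tested.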

How the data were processed

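RNA was measured in 11 libraries by stranded poly(A) single-end sequencing (75 bases), as the labels' protocols state. The authors deposited raw counts of reads per gene. Per the file headers they were made with featureCounts 2.0.1, reversely stranded, with an Ensembl annotation of GRCm38 (its release is not given in the sources used here), and the recorded command counts neither multimapping reads nor reads that overlap several genes. The submitters' processing notes also name the aligner HISAT2 2.2.1, with SAMtools 1.9, FastQC 0.11.8, deepTools 3.3.0 and CASAVA 1.9. Cells sorted at E14.5, which the design text mentions, were not analysed here.

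Each comparison used edgeR 4.0.16 in R 4.3.3 (quasi-likelihood test with robust estimation, TMM scaling, filterByExpr) on the counts of the groups compared, with Benjamini-Hochberg adjustment over all genes tested at a threshold of 0.05. The SE is the absolute log2 fold change divided by the square root of F. Alternatives were DESeq2 1.42.0, limma 3.58.1 (voom with library quality weights), library totals as scaling, no filter, all 11 libraries in one fit, a replicate block, embryo sex as a term, and leaving out each library. The code of the fit was checked on simulated counts with the same spread set for every gene. That spread was not taken from these libraries, so the check does not speak for the calls made here. Libraries of a group differed beyond sampling noise (chi-square per degree of freedom 2.48 to 86.3), so none was merged. Promoter windows are RefSeq's for GRCm38.p6. No window was used for Cdkn1c, H19, Peg10, Peg13, Sgce, Rtl1, Impact and Trappc9.

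The members and lists were chosen with earlier results of these data known. All 39 members are accounted for. Values per library are given for members called in the gain or loss comparison, the 6 with the smallest p in the gain comparison, the 5 largest called changes in each direction between E15.5 and E12.5, and the pairs Igf2 and H19, Dlk1 and Meg3, and Plagl1 and Cdkn1c. From each list of related genes up to 4 called genes with the largest fold change are named per comparison. Members that were called only without 1 library are named for that reason.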

Additional observations from a re-analysis of the deposited data

How the results depend on the processing

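Of the 40 single-gene results that were followed, 0 reversed in 486 alternative settings, 43 lost and 8 gained a call. These results were picked as called, or with the smallest p, in the main fit of the same data, so their signs were unlikely to turn. Among the gain differences outside those results, none of which was called, 10 of the 35 members changed sign without GFP control replicate 1. In the gain comparison 1 member was called by DESeq2, 9 by voom and 1 in a single fit of all 11 libraries, and 0 to 4 when libraries were left out in turn. Over all genes the 2 calls became 119, 2001 and 97 with these tools, 1 with embryo sex as a term, and 0 to 415 (without GFP control replicate 1) when libraries were left out. In the loss comparison the 4 members became 7 with no filter on low counts, 0 in the single fit, and 2 to 6 when libraries were left out. The 1213 calls over all genes became 2266 with no filter, 15 in the single fit, 654 with embryo sex, and 603 to 1785 when libraries were left out. Between E15.5 and E12.5 the 23 members became 21 to 30 when libraries were left out, within 1.5 times under every alternative run. The cause of these shifts was not tested. Where a group was left with 1 library, that library was assumed to vary like the others.

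Same-numbered libraries were not shown to be paired (correlations of 0.180, 0.00998 and 0.257 in the gain comparison). With the replicate number as a block 0 members were called in the gain comparison, 3 in the loss comparison (Usp29 lost, adjusted p = 0.0660) and 24 between E15.5 and E12.5. Not every library correlated best with its own number, since gain replicate 2 correlated best with GFP control replicate 1 (0.115). Members below about 1 CPM are limited by depth.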
